A study of Mus musculus with 9 samples.

Results

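Cell cycle and DNA replication genes were examined in RNA-seq libraries of mouse bone marrow mesenchymal stromal cells, which are supporting cells of fibroblast type. The set holds 39 genes of the 30579 in the deposited table. It was defined by gene symbol and not by any measured value, and it spans G1 cyclins and their kinases, replication factors, nucleotide enzymes, mitotic regulators and their transcription factors. The 9 libraries fall into 3 groups of 3: cells from 18-month-old mice labelled Thbs1 knockout, from 18-month-old aged controls and from 3-month-old young controls. All mice received an antibody to VE-cadherin, an endothelial surface protein, 10 minutes before death. Stromal cells were sorted from the long bones by flow cytometry, and 2 ng of total RNA went into each SMART-Seq v4 library, a low-input method. The sources used here give neither the sort gates nor the strain, the knockout allele or whether the controls were wild type. Nor do the labels tie each library to its own mouse. The p-values below thus describe the spread between libraries, which may be technical.

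A cell commits to division in G1, when D-type cyclins with Cdk4 or Cdk6, and later E-type cyclins with Cdk2, phosphorylate the retinoblastoma protein and free E2F factors to switch on replication genes. The MCM complex is loaded on origins and unwinds DNA in S phase, and cyclin B with Cdk1 then drives mitosis until Cdc20 and Ube2c help to destroy it. Most marrow stromal cells divide rarely in the adult, whereas red cell, granulocyte and B-lineage precursors around them divide often.

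The targeted gene did not separate labelled-knockout libraries from aged controls, although both lay below young controls. Thbs1, which encodes the matrix protein thrombospondin-1, was at 24.28, 44.55 and 37.05 FPKM in the libraries labelled aged Thbs1 knockout, at 35.56, 41.89 and 36.85 FPKM in aged controls and at 74.98, 73.11 and 58.03 FPKM in young controls. FPKM is a fragment count scaled to transcript length and to the library's total. Those 18-month libraries are therefore called labelled-knockout libraries throughout. Estimated depth was 17600000 to 27600000 reads a library. Stromal markers were high in all 9 libraries, with Cxcl12 at 2873 to 6044 FPKM and Lepr at 233 to 673 FPKM. Labelled-knockout replicate 2 stood apart: it correlated at 0.738 to 0.811 with the other libraries (across genes, which are not independent replicates), had the fewest genes above 0 (13503), and listed at 0 some 21 genes that reached at least 5 FPKM in each other library. Reads of immunoglobulin genes made up 0.162%, 19.2% and 2.36% of the labelled-knockout libraries, 21.6%, 4.27% and 31.9% in aged controls and 0.00382%, 0.0103% and 0.170% in young controls. Because FPKM is relative to the total, a large share of this kind lowers the value of every other gene.

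Promoters of cell cycle genes are known for a pair of short elements. The CHR (cell cycle genes homology region, TTTGAA) is bound by the DREAM and MuvB complexes at mitotic genes, and the E2F site is typical of replication genes. Both were searched on both strands in the 250 bases before each RefSeq start (GRCm38.p6), which were at hand for 29 of 39 members. The upstream sequences of 4 members are shown because these genes carry the mitotic and the replication pattern described below, with CHR and E2F matches in capitals.
Top2a, chr11:99024190-99024369, reverse strand: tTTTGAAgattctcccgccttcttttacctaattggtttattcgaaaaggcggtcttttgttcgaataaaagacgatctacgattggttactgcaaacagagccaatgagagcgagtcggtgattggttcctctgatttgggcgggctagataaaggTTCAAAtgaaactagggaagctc
Cdk1, chr10:69352939-69353092, reverse strand: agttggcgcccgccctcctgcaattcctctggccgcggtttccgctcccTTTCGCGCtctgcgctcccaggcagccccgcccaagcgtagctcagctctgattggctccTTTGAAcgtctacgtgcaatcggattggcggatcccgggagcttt
Mcm6, chr1:128359706-128359885, reverse strand: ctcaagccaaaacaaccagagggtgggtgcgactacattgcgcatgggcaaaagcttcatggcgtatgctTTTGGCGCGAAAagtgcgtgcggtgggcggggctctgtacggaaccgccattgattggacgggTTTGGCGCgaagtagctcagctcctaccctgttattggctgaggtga
Mcm5, chr8:75109329-75109508, forward strand: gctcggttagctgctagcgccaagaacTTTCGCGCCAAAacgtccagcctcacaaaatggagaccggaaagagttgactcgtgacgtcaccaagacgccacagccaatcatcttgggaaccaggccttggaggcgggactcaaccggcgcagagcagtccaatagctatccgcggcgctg
Top2a holds CHR matches that begin 179 and 23 bases before the start, the second on the opposite strand. The Cdk1 sequence shown stops 26 bases short of the RefSeq start, where an annotated exon begins, and holds an E2F match 131 bases and a CHR match 71 bases before that start. Mcm6 holds E2F matches at 110, 106 and 47 bases, the first pair overlapping on opposite strands, and Mcm5 an overlapping pair of the same kind at 153 and 149 bases. The CHR letters were found in 7 of 29 members (24.1%; Mki67, Top2a, Ccnb2, Cdk1, Mcm2, Cdc20 and Ube2c), including 5 of 11 mitotic members and 0 of 5 G1 members, and in 18.3% of all 27025 genes with a promoter. One of the E2F spellings TTTCCCGC, TTTGGCGC, TTTCGCGC or TTTGCCGC was found in 6 of 29 members (20.7%; Cdk1, Cdk2, Mcm5, Mcm6, Mcm7 and Cdc6), 4 of them among 11 replication members, and in 2.16% of all genes. The CCAAT box, searched as CCAAT, was found in 21 of 29 members (72.4%) and in 37.5% of all genes. In the 9184 genes with a promoter that reached 1 FPKM in at least 3 libraries, the shares were 12.6% for CHR, 3.9% for E2F and 40.0% for CCAAT. These matches describe letters in a window and not sites in use.

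Cell cycle RNA was scarce in all groups. The median over the 9 libraries was under 1 FPKM for 8 members, 1 to 5 FPKM for 21, 5 to 10 FPKM for 4 and at least 10 FPKM for 6. The 29 members under 5 FPKM made up 74.4% of the set, beside 46.5% of the 11988 genes that were tested. The most abundant were Cdk4 (median 73.7 FPKM), Pcna (20.7), Ccnd2 (18.2), Ccnd3 (16.6), Mcm4 (12.5) and Stmn1 (12.1). Mki67, whose protein coats mitotic chromosomes and is the usual marker of dividing cells, was at 0.02, 0.54 and 0.39 FPKM in labelled-knockout libraries, at 0.79, 0.58 and 0.45 FPKM in aged controls and at 0.16, 0.07 and 0.11 FPKM in young controls. All 3 aged controls thus lay above all 3 young controls, as was so for 7.02% of tested genes. These are levels where an estimated 5.24 to 206 reads stand behind a value. Mki67 and the checkpoint kinase Bub1 (highest 0.7 FPKM) did not reach 1 FPKM in 3 libraries and were not tested. The other 37 members were, of which Top2a, Tpx2, Plk1 and Cdc6 reached 1 FPKM in exactly 3 libraries.

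**Figure D1:**
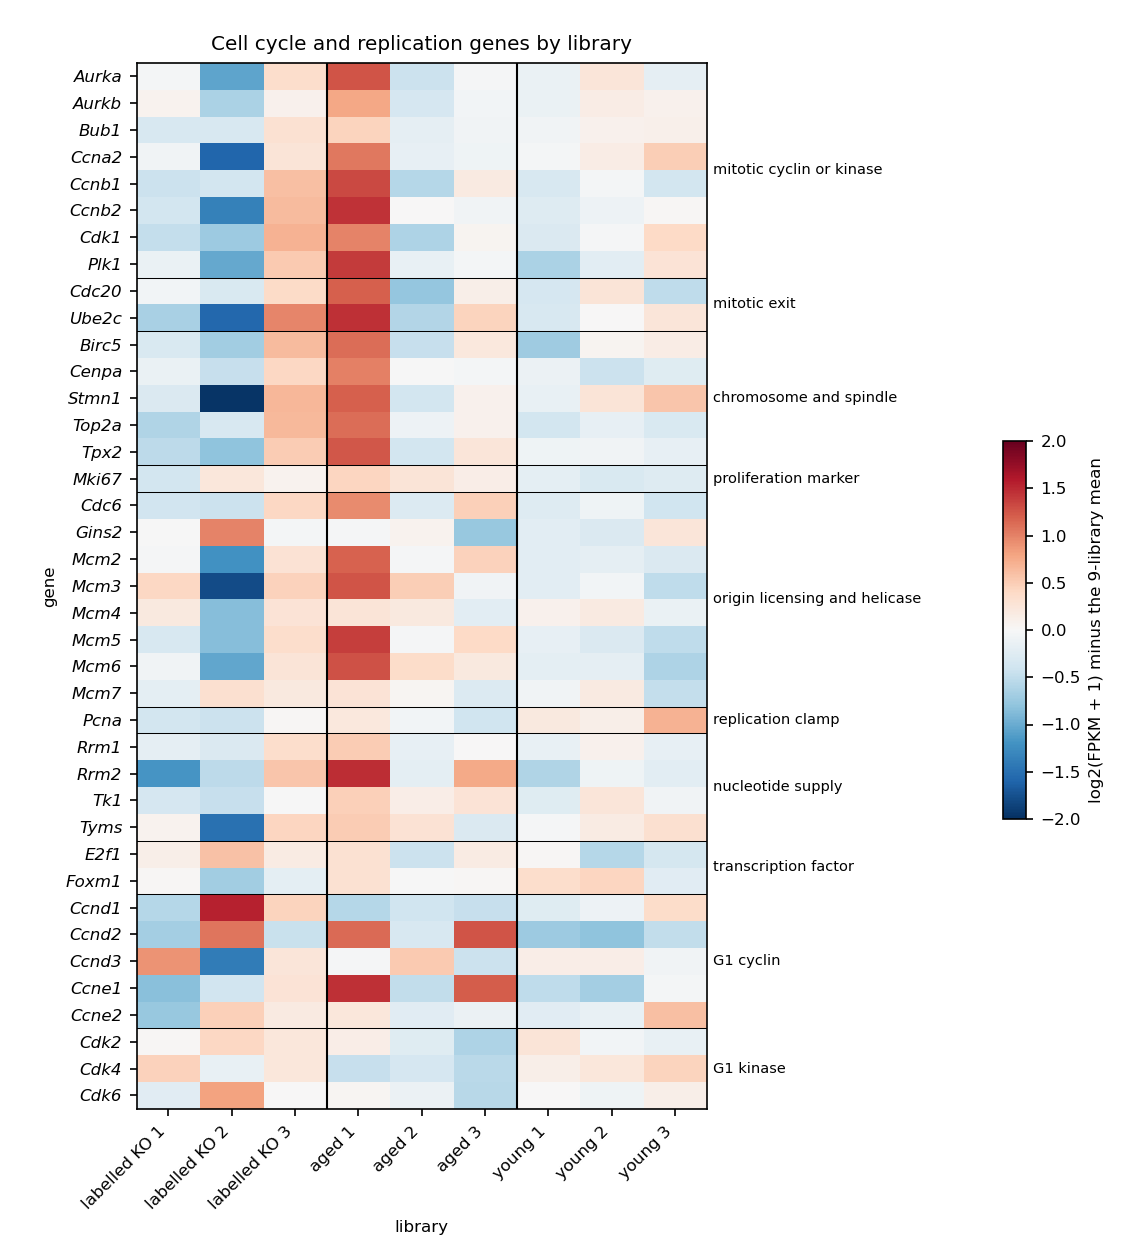
Level of each of the 39 members (down the page, by role) in each of the 9 libraries (across; labelled KO, aged, young), as log2(FPKM + 1) minus the member's mean over the libraries. Red is above that mean and blue below; replicate 1 of the aged controls is red for most mitotic and replication genes, and replicate 2 of the labelled-knockout libraries is blue for many.

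The members moved by library more than by group. Aged control replicate 1 held the highest value of the 9 libraries for 26 of 39 members (66.7%), whereas it did so for 3.96% of tested genes. It lay above both other aged controls for 34 members, against 20.4% of tested genes, and for 30 of the 31 members outside the G1 cyclins and kinases. Among the 26 members that peaked in it, labelled-knockout replicate 3 came second for 15. That library exceeded both other labelled-knockout libraries for 27 of 39 members (69.2%), against 34.8% of tested genes. Labelled-knockout replicate 2 was lowest of all for 23 members (59.0%), but it was also lowest for 45.2% of tested genes. The median SD within a group on the log2 scale was 0.64 for members and 0.50 for all tested genes in labelled-knockout libraries, 0.61 and 0.24 in aged controls, and 0.24 and 0.21 in young controls. The aged controls therefore spread more widely for these genes than for the table at large, and the young controls only slightly so. These libraries were singled out after their values were seen, so the counts are given without a test.

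**Figure D2:**
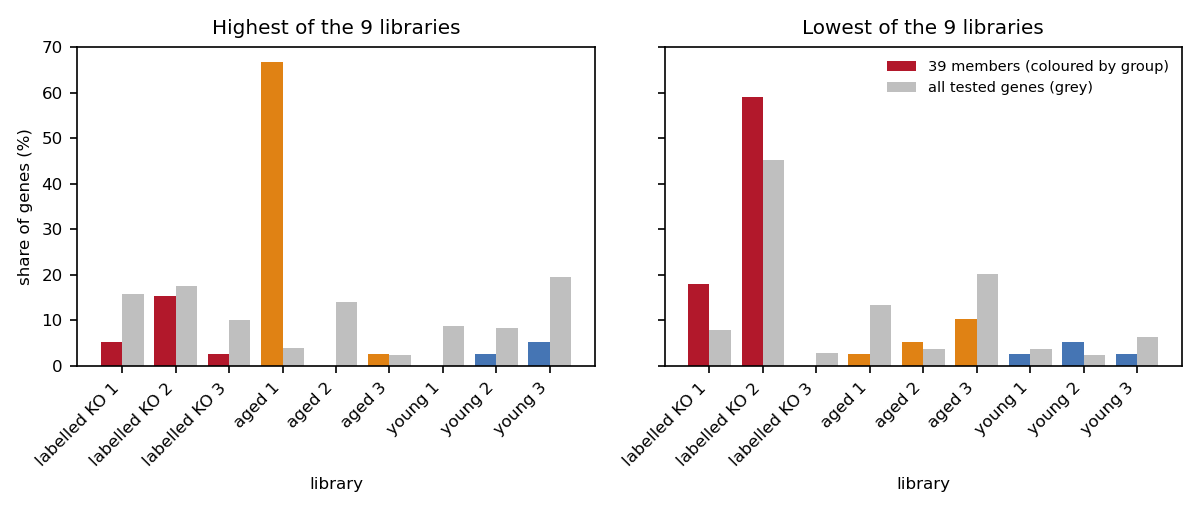
Share of genes (%) for which each library holds the highest (left) or the lowest (right) value of the 9, for the 39 members (coloured by group: labelled KO, aged, young) and for all 11988 tested genes (grey). Aged control replicate 1 is highest for 66.7% of members and 3.96% of tested genes.

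Mitotic kinases and cyclins showed this in all 7 tested genes. Cdk1, the kinase that drives entry into mitosis (chromosome 10, 69335146 to 69352938, reverse strand, GRCm38 with GENCODE M21), was at 0.47, 0.24 and 2.32 FPKM in labelled-knockout libraries, at 3.06, 0.33 and 1.13 FPKM in aged controls and at 0.67, 1.02 and 1.71 FPKM in young controls. Its partner Ccnb1 (cyclin B1) was at 0.67, 0.76 and 2.42 FPKM in labelled-knockout libraries, at 4.67, 0.52 and 1.55 FPKM in aged controls and at 0.8, 1.19 and 0.76 FPKM in young controls. For both genes the highest aged control lay above every other library and the lowest aged control lay below all young controls, so the groups overlapped. Ccnb2, the second B-type cyclin, was at 2.4, 0.72 and 5.8 FPKM in labelled-knockout libraries, at 10.95, 3.4 and 3.14 FPKM in aged controls and at 2.67, 3.09 and 3.44 FPKM in young controls. Ccna2 (cyclin A2, which acts in S phase and early mitosis) reached 7.25 FPKM in aged control replicate 1 and 0.32 FPKM in labelled-knockout replicate 2, with 2.53 to 4.6 FPKM in the remaining libraries. The kinases of spindle assembly peaked in the same library: aged control replicate 1 exceeded the mean of the other aged controls 5.03-fold for Aurka, 4.83-fold for Plk1 and 3.24-fold for Aurkb. Plk1 and Aurka were listed at 0 in labelled-knockout replicate 2, and Bub1 in replicates 1 and 2.

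The genes of mitotic exit followed. Cdc20, the activator of the anaphase-promoting complex, was at 4.01, 3.21 and 5.75 FPKM in labelled-knockout libraries, at 10.89, 2.03 and 4.6 FPKM in aged controls and at 3.11, 5.19 and 2.65 FPKM in young controls. Ube2c, the ubiquitin-conjugating enzyme of that complex, ranged from 0.15 FPKM in labelled-knockout replicate 2, an estimated 7.04 reads, to 8.4 FPKM in aged control replicate 1. In both the top library was the same, and labelled-knockout replicate 3 came second.

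Chromosome and spindle genes varied alike. Top2a, the topoisomerase that untangles sister chromatids (chromosome 11, 98992943 to 99024189, reverse strand), was at 0.36, 0.65 and 2.22 FPKM in labelled-knockout libraries, at 3.47, 0.93 and 1.2 FPKM in aged controls and at 0.59, 0.85 and 0.67 FPKM in young controls. Every aged control lay above every young control, although aged control replicate 2 did so by 0.93 against 0.85 FPKM. The centromeric histone Cenpa also had no overlap, at 4.06, 1.51 and 1.44 FPKM in aged controls against 1.32, 0.87 and 1.12 FPKM in young controls. Stmn1, a microtubule-destabilizing protein also made by other proliferating and neural cells, was the most abundant of the group, at 9.08, 2.14 and 18.34 FPKM in labelled-knockout libraries, 27.23, 8.49 and 12.09 FPKM in aged controls and 10.09, 13.69 and 17.03 FPKM in young controls. Birc5 (survivin, of the chromosomal passenger complex) and Tpx2, which activates Aurka on the spindle, peaked in aged control replicate 1 at 5.72 and 3.63 FPKM.

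Among replication genes, the MCM helicase separated aged from young controls in some subunits but not in others. Its 6 subunits act as a ring with 1 copy of each, yet their RNA levels per length were uneven: Mcm2 was the lowest in every library but labelled-knockout replicate 1, where Mcm5 was. Mcm4 was the highest in every library but labelled-knockout replicate 2 (Mcm7) and aged control replicate 1 (Mcm6). Summed over the subunits, the level was 33.7, 18.8 and 40.9 FPKM in labelled-knockout libraries, 62.9, 38.6 and 32.5 FPKM in aged controls and 30.4, 33.2 and 23.6 FPKM in young controls. Mcm6 (chromosome 1, 128331590 to 128359664, reverse strand) was at 6.92, 3.06 and 8.96 FPKM in labelled-knockout libraries, at 19.01, 9.66 and 8.46 FPKM in aged controls and at 6.25, 6.34 and 4.43 FPKM in young controls. Aged and young controls did not overlap for Mcm6, nor for Mcm5 (aged controls 7.33, 2.12 and 3.22 FPKM, young controls 1.85, 1.62 and 1.25 FPKM) or Mcm2 (aged controls 4.99, 1.59 and 2.64 FPKM, young controls 1.27, 1.34 and 1.15 FPKM). Mcm4 and Mcm7 had no such gap: Mcm4 averaged 11.7 ± 2.12 FPKM in aged and 11.3 ± 1.36 FPKM in young controls, and Mcm7 7.1 ± 1.5 FPKM in aged and 6.41 ± 1.66 FPKM in young controls (SD, n = 3 each). Mcm3 also overlapped, at 9.8, 5.39 and 3.34 FPKM in aged controls and at 2.92, 3.39 and 2.18 FPKM in young controls. Cdc6, which loads the MCM ring, ranged from 0.24 to 2.21 FPKM, and Gins2, a part of the active helicase, was instead highest in labelled-knockout replicate 2, at 10.9 FPKM.

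Pcna, the sliding clamp that holds DNA polymerase on its template and also serves in repair, did not peak in aged control replicate 1. It was at 15.54, 14.72 and 20.68 FPKM in labelled-knockout libraries, at 23.52, 19.44 and 15.06 FPKM in aged controls and at 23.37, 22.13 and 33.58 FPKM in young controls. All labelled-knockout libraries lay below all young controls. Pcna, Ccnd3, Stmn1, Ccnb1, Ccnb2 and Tyms have annotated near copies in the genome, so a part of their reads is uncertain. Rrm2, the S-phase subunit of ribonucleotide reductase, was at 2.02, 3.77 and 9.11 FPKM in labelled-knockout libraries, at 18.13, 5.01 and 10.66 FPKM in aged controls and at 3.52, 5.49 and 4.96 FPKM in young controls. Its partner Rrm1, which is present through the cycle, ranged only from 2.13 to 4.42 FPKM. Tk1, the thymidine kinase of S phase, was at 1.92, 1.68 and 2.69 FPKM in labelled-knockout libraries and at 4.13, 3.04 and 3.45 FPKM in aged controls, with no overlap, and at 2.14, 3.36 and 2.52 FPKM in young controls. Tyms, which makes thymidylate, was listed at 0 in labelled-knockout replicate 2 and was at 1.31 to 3.01 FPKM elsewhere.

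Of the transcription factors, E2f1, an activator of replication genes, was at 1.48, 2.46 and 1.56 FPKM in labelled-knockout libraries, at 1.83, 0.7 and 1.58 FPKM in aged controls and at 1.33, 0.54 and 0.79 FPKM in young controls. Foxm1, an activator of mitotic genes, was at 1.05, 0.24 and 0.76 FPKM in labelled-knockout libraries, at 1.49, 0.99 and 1.04 FPKM in aged controls and at 1.55, 1.69 and 0.71 FPKM in young controls. E2f1 was above all young controls in all labelled-knockout libraries, and Foxm1 overlapped in every comparison.

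The D cyclins differed among themselves. In aged control replicate 1, Ccnd1, Ccnd3 and Cdk4 were not above the mean of the other aged controls, while Ccnd2, Ccne1, Ccne2, Cdk2 and Cdk6 were. Ccnd2 (cyclin D2, chromosome 6, 127125162 to 127152193, reverse strand) was at 15.28, 54.01 and 18.23 FPKM in labelled-knockout libraries, at 56.29, 19.98 and 61.43 FPKM in aged controls and at 14.8, 13.97 and 17.66 FPKM in young controls. The 3 libraries above 50 FPKM were the same 3 in which immunoglobulin genes took 19.2%, 21.6% and 31.9% of reads, and the part of other cells in this level was not tested. With immunoglobulin genes left out and each library rescaled, Ccnd2 was at 15.3, 66.8 and 18.7 FPKM in labelled-knockout libraries, at 71.8, 20.9 and 90.2 FPKM in aged controls and at 14.8, 14.0 and 17.7 FPKM in young controls. Ccne1 (cyclin E1), like the mitotic genes, was highest of all in aged control replicate 1, and next in aged control replicate 3, at 6.17 and 5 FPKM, with 0.84 FPKM in aged control replicate 2, 0.46 to 2.15 FPKM in labelled-knockout libraries and 0.63 to 1.52 FPKM in young controls. Ccnd1 (cyclin D1) was at 0.71, 6.34 and 2.44 FPKM in labelled-knockout libraries, at 0.71, 0.91 and 0.84 FPKM in aged controls and at 1.13, 1.35 and 2.28 FPKM in young controls. It was thus low in all aged controls, and its top value came from the labelled-knockout library that stood apart. Ccnd3 (cyclin D3) was lowest in that library, at 5.1 FPKM, and highest in labelled-knockout replicate 1, at 29.2 FPKM. Ccne2 (cyclin E2) ranged from 1.12 to 4.43 FPKM, with overlap in every comparison.

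Cdk4 (chromosome 10, 127063534 to 127067920, forward strand), the kinase partner of the D cyclins, was the most abundant member in 7 of the 9 libraries, with Ccnd2 above it in aged control replicates 1 and 3. It was at 93.67, 60.93 and 79.2 FPKM in labelled-knockout libraries, at 48.86, 53.33 and 46.13 FPKM in aged controls and at 73.68, 79.7 and 92.14 FPKM in young controls. All 3 aged controls lay below all 6 other libraries. On the scale without immunoglobulin genes it was at 93.8, 75.4 and 81.1 FPKM in labelled-knockout libraries, at 62.3, 55.7 and 67.7 FPKM in aged controls and at 73.7, 79.7 and 92.3 FPKM in young controls. This kept the order, with a smaller gap between aged and young controls. Cdk6, its close relative, ranged from 0.76 to 3.52 FPKM and Cdk2, the partner of cyclin E, from 3.55 to 8.32 FPKM. Each was highest in labelled-knockout replicate 2 and lowest in aged control replicate 3. Exons of Cdk4, Ccnd2 and 15 further members overlap another annotated gene, for Cdk4 that of Tspan31 on the other strand. The strandedness of the counting is not given in the sources used here, so reads of such pairs cannot be told apart.

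**Figure D3:**
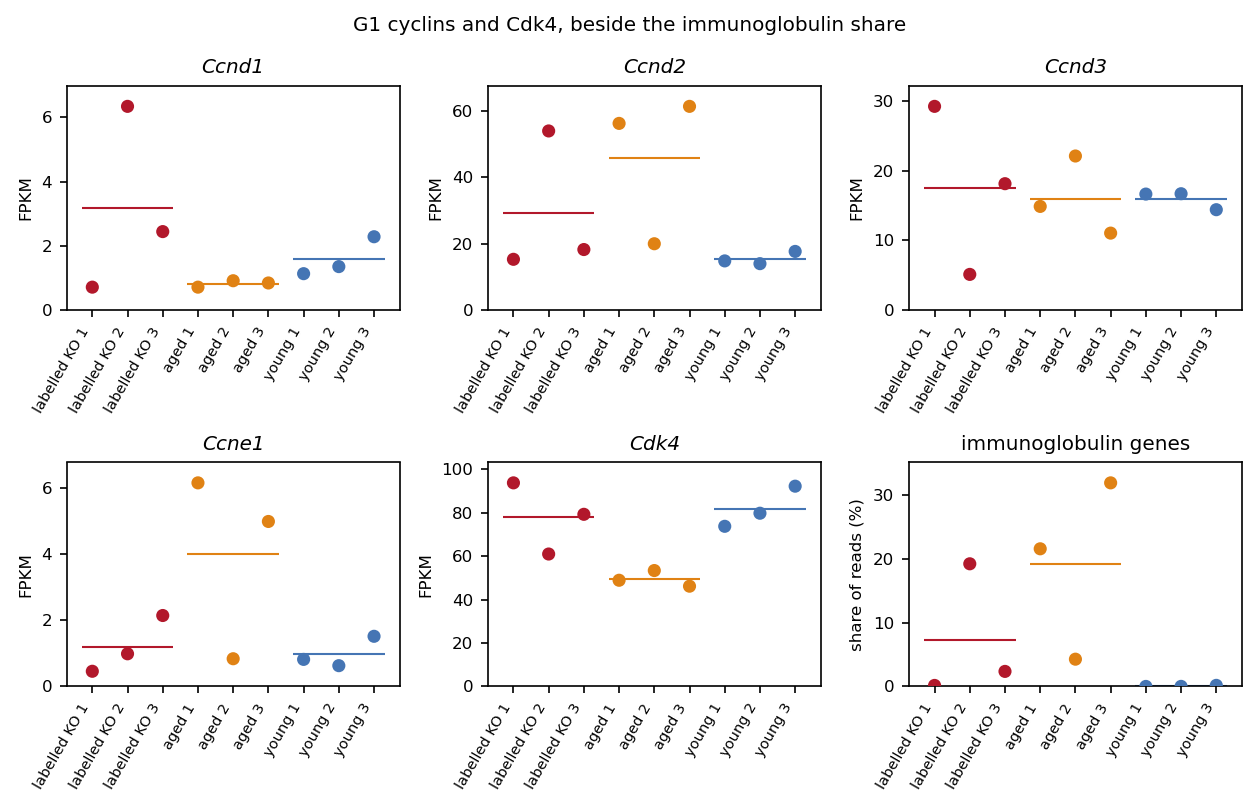
FPKM of 4 G1 cyclins and Cdk4, and the share of reads (%) in immunoglobulin genes, in each library (labelled KO, aged, young); points are libraries and lines are group means. Ccnd2 exceeds 50 FPKM in the libraries where the share is 19.2%, 21.6% and 31.9%, and Cdk4 is at 46.13 to 53.33 FPKM in aged controls and above 60 FPKM in the others.

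Labelled-knockout libraries were set against aged controls to ask about Thbs1 at equal age. In limma, fitted on log2(FPKM + 1) over all genes, 0 of 37 members passed an adjusted p under 0.05, where 3.48% of tested genes did (1.52% higher, 1.96% lower). At an unadjusted p under 0.05 there were 3 members (8.11%; 1 higher, 2 lower), against 19.8% of tested genes (12.5% higher, 7.3% lower). Cdk4 averaged 77.9 ± 16.4 FPKM in labelled-knockout libraries and 49.4 ± 3.63 FPKM in aged controls (SD, n = 3 each), a log2 fold change of 0.63 (SE 0.22, limma adjusted p = 0.165). Over the other settings tried, this fold change ranged from 0.42 to 0.79 (limma adjusted p up to 0.461). Tk1 averaged 2.1 ± 0.53 FPKM in labelled-knockout libraries and 3.54 ± 0.55 FPKM in aged controls, at −0.56 (SE 0.23, limma adjusted p = 0.220), and Mcm6 lay at −0.89 (SE 0.39, limma adjusted p = 0.249). Only Cdk4 (higher) and Tk1 (lower) had no overlap between the groups, 2.7% of members each way, against 16.6% of tested genes higher and 6.54% lower. Of 37 members 30 had a negative fold change, with a median of −0.40 beside 0.07 for all tested genes. Over the same 37 members that median came to −0.12 without aged control replicate 1 (14 positive), to −0.12 without labelled-knockout replicate 2 (9 positive) and to 0.22 without both (27 positive). The median of all tested genes also moved, from −0.014 to 0.26 over the fits that left libraries out.

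Aged were set against young controls to ask about age. Again 0 of 37 members passed in limma, beside 4.04% of tested genes (2.57% higher, 1.47% lower). At an unadjusted p under 0.05 there were 3 (8.11%; 2 higher, 1 lower), against 21.7% of tested genes (5.96% higher, 15.7% lower). Ccnd2 averaged 45.9 ± 22.6 FPKM in aged and 15.5 ± 1.94 FPKM in young controls (SD, n = 3 each), a log2 fold change of 1.36 (SE 0.52, 95% interval 0.18 to 2.54, limma adjusted p = 0.172). Cdk4 averaged 49.4 ± 3.63 FPKM in aged and 81.8 ± 9.41 FPKM in young controls, at −0.71 (SE 0.22, interval −1.22 to −0.21, limma adjusted p = 0.112). Over the other settings tried, its fold change ranged from −0.78 to −0.38 (limma adjusted p up to 0.390). For Mcm6 the means were 12.4 ± 5.78 FPKM in aged and 5.67 ± 1.08 FPKM in young controls, at 0.93 (SE 0.39, interval 0.05 to 1.82, limma adjusted p = 0.206). These 3 passed when labelled-knockout replicate 2, which shares the estimate of spread, was left out (adjusted p = 0.0328, 0.0198 and 0.0449; 23.1% of all genes then passed). Ccnd2 and Cdk4 also passed in a fit of the aged and young controls alone (adjusted p = 0.0474 and 0.0327; 18.7% of all genes passed). Aged controls lay wholly above young controls for 6 of the 37 tested members (16.2%; Ccnd2, Mcm6, Mcm5, Mcm2, Cenpa and Top2a), against 7.02% of tested genes, and wholly below for Cdk4 and Ccnd1 (5.41%), against 37.4% of tested genes. Mki67, which was not tested, also lay wholly above. The member median was 0.31, with 28 of 37 positive, beside −0.28 and 25.5% positive for all tested genes. Without aged control replicate 1 the median over the same 37 members was 0.00323, with 19 positive. With the filter recomputed, which left out Top2a, Tpx2, Plk1 and Cdc6, it was −0.05 (15 of 33 positive). Over the fits that left libraries out, the median of all tested genes in this comparison was −0.36 to −0.22, below these member medians.

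Labelled-knockout libraries and young controls differ in both age and label. In limma 0 of 37 members passed, beside 0.025% of tested genes (0.00834% higher, 0.0167% lower). At an unadjusted p under 0.05 there was 1, lower, against 8.63% of tested genes (2.11% higher, 6.52% lower). Pcna averaged 17.0 ± 3.23 FPKM in labelled-knockout libraries and 26.4 ± 6.28 FPKM in young controls, at −0.60 (SE 0.26, limma adjusted p = 0.566; SD, n = 3 each). E2f1 lay at 0.59 (SE 0.28, limma adjusted p = 0.60) and Foxm1 at −0.46 (SE 0.27, limma adjusted p = 0.621). Pcna and E2f1 were the members without overlap, against 13.4% of tested genes lower and 4.08% higher. The member median was −0.04 with 17 of 37 positive, beside −0.16 for all tested genes, and it was 0.13 without labelled-knockout replicate 2 (28 of 37 positive). For all tested genes the median was −0.24 to −0.0197 over the fits that left libraries out. The comparisons share groups, so their fold changes are not independent: high aged controls give positive values against young controls and negative values in the comparison with labelled-knockout libraries.

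**Figure D4:**
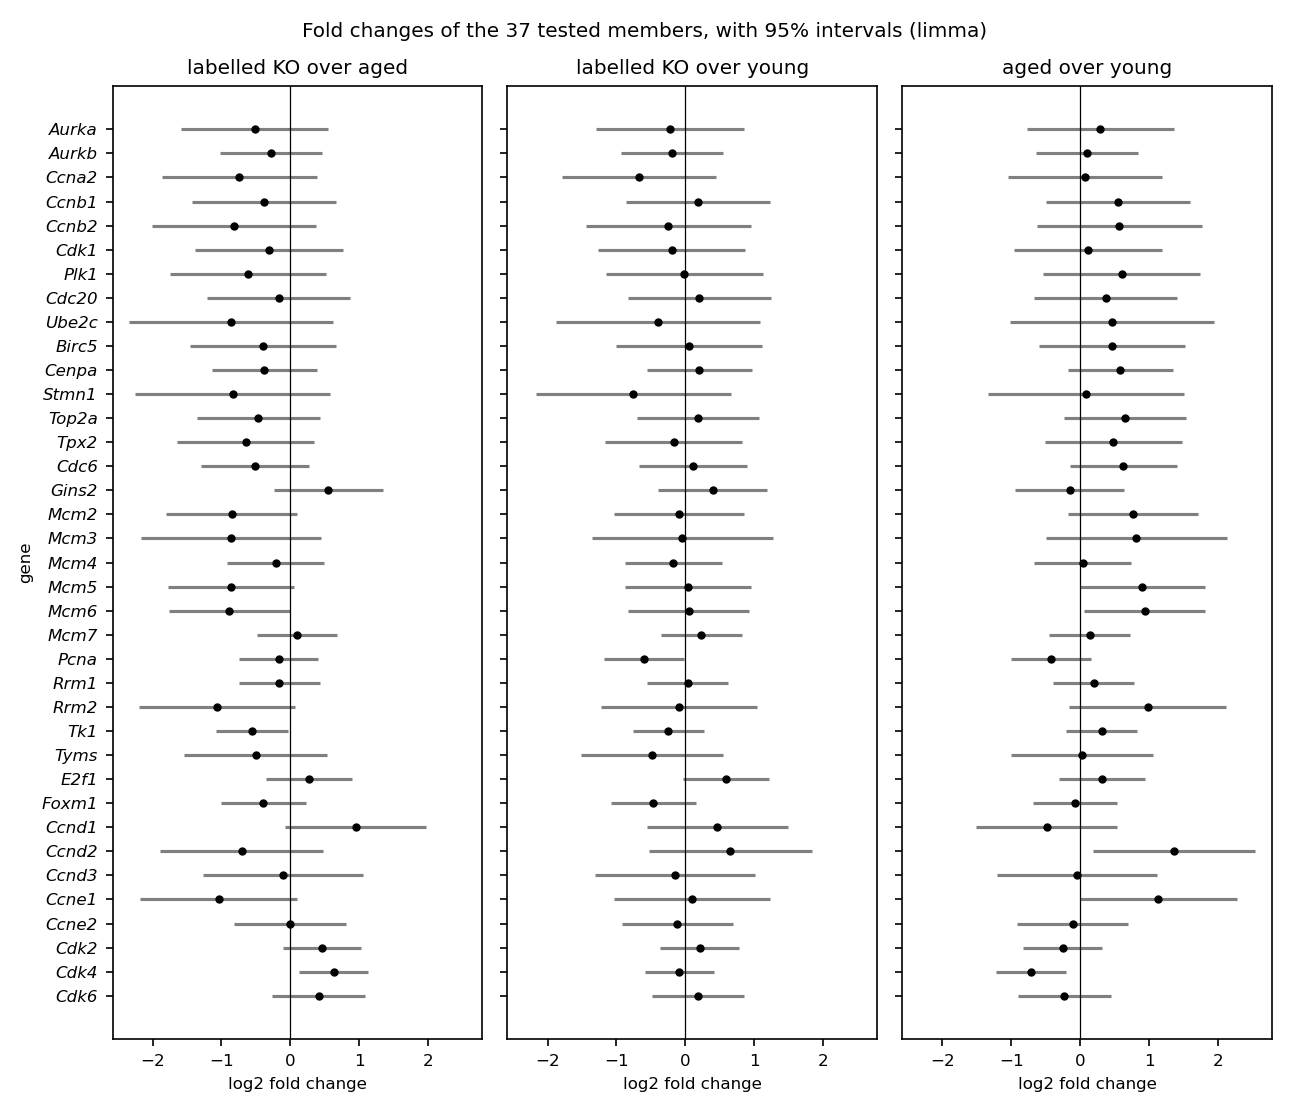
Log2 fold change of each of the 37 tested members with its 95% interval from limma, for labelled-knockout over aged, labelled-knockout over young and aged over young libraries. No member passed adjustment over the 11988 tested genes; Cdk4 lies at 0.63 over aged controls and at −0.71 in aged over young controls.

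By role, the 7 tested mitotic cyclins and kinases all had negative fold changes in labelled-knockout libraries against aged controls (median −0.52) and positive ones in aged against young controls (median 0.29), with none past the threshold. Of all tested genes 55.7% were positive in the first comparison and 25.5% in the second. The shared sign in aged over young controls rested on aged control replicate 1. Without it, the aged mean lay below the young mean for Ccna2 (2.635 against 3.61 FPKM), Cdk1 (0.73 against 1.13), Aurka (0.79 against 1.06) and Aurkb (0.76 against 1.06). It lay above for Ccnb1, Ccnb2 and Plk1. The intervals were wide: for Cdk1 the fold change in aged over young controls was 0.11, with an interval of −0.96 to 1.18, and for Top2a it was 0.65 (−0.24 to 1.54). Changes of about that width in either direction were thus not resolved. The 8 licensing and helicase genes had medians of −0.68 for labelled-knockout over aged and 0.70 for aged over young libraries. The 3 G1 kinases had medians of the opposite sign in both, at 0.46 and −0.25. For all tested genes the medians were 0.07 and −0.28, so the G1 kinase value in aged over young controls was near that of the whole table.

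Lists of further cell cycle genes gave the wider picture. Of 30 tested other mitotic genes, 1 rose and 1 fell in labelled-knockout libraries relative to aged controls, where 3.48% of all tested genes were called. In aged against young controls limma called 0 of them, with 5 at an unadjusted p under 0.05 (16.7%, against 21.7% of tested genes). Tuba1b, an alpha-tubulin of all cells, rose to 109.2, 89.93 and 82.22 FPKM in labelled-knockout libraries, against 46.75, 55.64 and 42.91 FPKM in aged controls (log2 fold change 0.94, SE 0.21, limma adjusted p = 0.0495). Smc4, a condensin subunit, fell to 0.55, 0.05 and 0.59 FPKM in labelled-knockout libraries, against 2.81, 3.15 and 1.58 FPKM in aged controls (−1.33, SE 0.30, limma adjusted p = 0.0483). Of 38 other replication genes none passed in any comparison, with medians of 0.02 for labelled-knockout over aged and −0.04 for aged over young libraries. At an unadjusted p under 0.05 limma gave 6 of these 38 for labelled-knockout over aged libraries (15.8%, against 19.8% of tested genes), 6 for aged over young controls (15.8%, against 21.7%) and 1 for labelled-knockout over young libraries (2.63%, against 8.63%). The gain in aged control replicate 1 over the other aged controls was a median of 1.53 (log2) for the 2 mitotic exit members, 1.49 for mitotic cyclins and kinases, 1.25 for chromosome and spindle members, 0.91 for licensing and helicase members, 0.54 for nucleotide enzymes, 0.40 for G1 cyclins, 0.37 for G1 kinases, 0.69 for other mitotic genes (26 of 30 higher), 0.38 for other replication genes (35 of 38 higher), 0.20 for other cell cycle regulators and 0.00434 for all tested genes.

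Of the inhibitors and other regulators of the cycle, 3 genes passed in a comparison. Cdkn1a (p21), which blocks cyclin-dependent kinases after stress, was at 123.04, 80.91 and 172.8 FPKM in labelled-knockout libraries, at 34.84, 64.1 and 41.55 FPKM in aged controls and at 159.87, 116.58 and 160.65 FPKM in young controls. It fell in aged against young controls (log2 fold change −1.65, SE 0.34, limma adjusted p = 0.0331). Myc, a growth-promoting transcription factor, was at 166.85, 70.29 and 124.54 FPKM in labelled-knockout libraries, at 36.36, 57.44 and 40.32 FPKM in aged controls and at 137.34, 119.51 and 102.17 FPKM in young controls, and likewise fell with age (−1.42, SE 0.33, limma adjusted p = 0.04998). Cdkn1c (p57), an inhibitor typical of resting cells, was at 88.16, 59.41 and 86.74 FPKM in labelled-knockout libraries, at 34.02, 41.25 and 33.72 FPKM in aged controls and at 57.97, 66.02 and 78.58 FPKM in young controls. It rose in labelled-knockout libraries relative to aged controls (1.07, SE 0.24, limma adjusted p = 0.0452). Of 6 tested inhibitors 1 fell with age and 1 rose in that comparison, and of 25 other regulators 1 fell with age and 0 passed in labelled-knockout over aged libraries in limma (5 at an unadjusted p under 0.05, 20.0%, against 19.8% of tested genes). Of all tested genes 1.47% fell with age and 1.52% rose in labelled-knockout over aged libraries, so with lists this small 1 call apiece describes single genes. Stromal markers lay in the same direction as these genes: 11 of 11 had a negative fold change in aged over young controls (median −0.79, Adipoq called) and 10 of 11 a positive one in labelled-knockout over aged libraries (median 0.53). Of all tested genes 25.5% were positive in the first comparison (median −0.28) and 55.7% in the second (median 0.07). Of 10 pan-leukocyte markers 9 rose in aged over young controls and 8 fell in labelled-knockout over aged libraries, against 2.57% and 1.96% of tested genes. The part of cell makeup in the 5 calls was not tested. These calls were near the threshold. Leaving out 1 library at a time, with no change of direction, Cdkn1a lost its call in 5 of 9 fits (aged control replicates 1 and 3 and each young control; adjusted p up to 0.226). Myc lost it in 7 (each control library and labelled-knockout replicate 3; up to 0.281). Cdkn1c and Tuba1b lost it in 8, all but labelled-knockout replicate 2 (up to 0.249 and 0.265). Smc4 lost it in 7, all but that library and aged control replicate 3 (up to 0.254).

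Most tested markers of other marrow cells were also raised in aged control replicate 1 relative to the mean of the other aged controls, as were 50.7% of all tested genes. Of 10 tested erythroid markers 9 were higher in it than the mean of the other aged controls (median 0.96 on the log2 scale), among them Car1, at 106.06 FPKM against 9.83 and 8.81 FPKM in the other aged controls, and the red cell regulator Klf1, at 8.16 against 1.32 and 0.75 FPKM. So were 11 of 12 neutrophil and granulocyte precursor markers (0.93), 6 of 7 blood progenitor and megakaryocyte markers (1.02), all 10 pan-leukocyte markers (1.04), all 5 B-cell markers (1.20) and all 9 plasma cell markers (0.74), while 0 of 11 stromal markers were (−0.49). Not all of these lists peaked in that library. As a mean of log2(FPKM + 1), the pan-leukocyte level was 5.68 in aged control replicate 1 and 5.75 in aged control replicate 2. The plasma cell level was 7.12 in aged control replicate 1 and 7.53 in aged control replicate 3. Neutrophil and granulocyte precursor markers and blood progenitor markers did peak in aged control replicate 1 on that scale (3.63 and 2.42), but not by sum. The first summed to 290.2 FPKM there and to 323.5 FPKM in young control replicate 3. The second summed to 230.2 FPKM there and to 275.7 FPKM in aged control replicate 2. Summed over its list, erythroid RNA was 104.8, 388.4 and 127.9 FPKM in labelled-knockout libraries, 284.4, 106.9 and 140.8 FPKM in aged controls and 120.3, 143.7 and 410.8 FPKM in young controls. These sums were mostly globin RNA in labelled-knockout replicate 2 and young control replicate 3; as a mean of log2(FPKM + 1) over the list, the erythroid level was 2.73 and 2.95 in those libraries and 3.52 in aged control replicate 1. Pan-leukocyte RNA summed to 6.69, 606.8 and 99.6 FPKM in labelled-knockout libraries, 1185, 1015 and 568.3 FPKM in aged controls and 7.94, 10.1 and 18.4 FPKM in young controls. Monocyte and macrophage RNA summed to 14.0, 811.2 and 106.2 FPKM in labelled-knockout libraries, 613.1, 126.4 and 962.2 FPKM in aged controls and 16.9, 23.6 and 36.5 FPKM in young controls. Nearly all of this was Ly6c2, at 788.36 FPKM in labelled-knockout replicate 2 and at 578.14 and 941.28 FPKM in aged control replicates 1 and 3, and 3 of 4 tested markers of that list had a negative fold change in aged over young controls. Endothelial RNA stayed at 12.7 FPKM or less in sum, and in aged controls it was mostly Pecam1. Pecam1 was at 9.34, 11.58 and 2.07 FPKM there and at 0.05, 0.09 and 0.07 FPKM in young controls. It was the only tested gene of the list and passed in aged over young controls (2.78, limma adjusted p = 0.0195) and labelled-knockout over aged libraries (−2.55, limma adjusted p = 0.0267). Cdh5, Emcn, Tie1, Stab2, Tek and Kdr stayed at 1.99 FPKM or less. T and NK cell RNA stayed at 25.9 FPKM or less, nearly all from Nkg7 (up to 25.21 FPKM), with Cd3d up to 0.68 FPKM and Cd3e, Cd3g, Cd8a and Gzma at 0.06 FPKM or less. B-cell RNA summed to 2.83, 104.0 and 17.3 FPKM in labelled-knockout libraries, 162.3, 34.2 and 116.5 FPKM in aged controls and 3.2, 2.28 and 4.7 FPKM in young controls. Cd79b (up to 65.22 FPKM), Cd79a (43.16), Vpreb3 (39.72), Ms4a1 (12.97) and Blnk (12.21) carried it, while Pax5, Rag1, Dntt and Igll1 were at 0.26 FPKM or less. In bulk RNA, fewer cells of a type and less RNA per cell cannot be told apart, and the part of these other cells in the cell cycle levels was not tested.

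**Figure D5:**
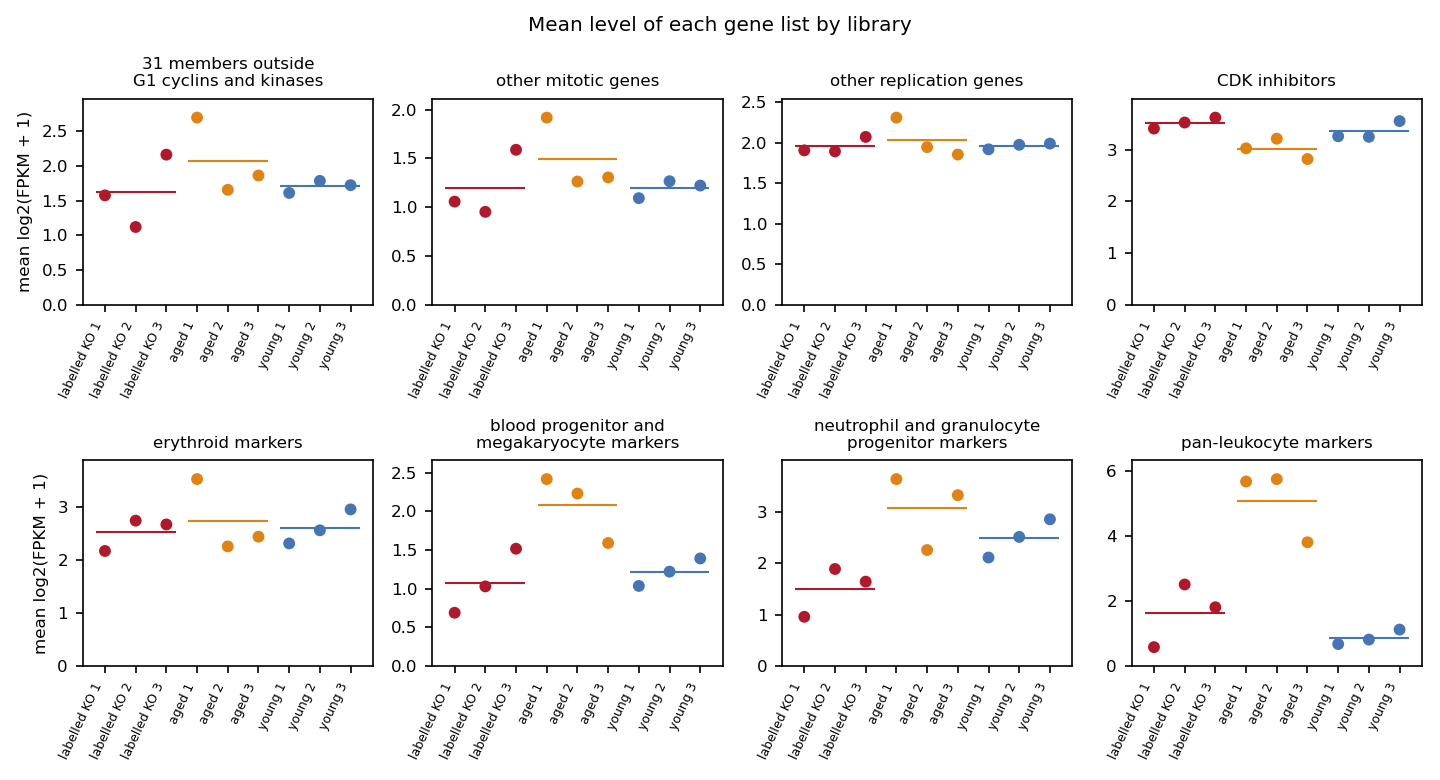
Mean log2(FPKM + 1) in each library (labelled KO, aged, young) of the 31 members outside the G1 cyclins and kinases, of further cell cycle lists and of markers of other marrow cells; points are libraries and lines are group means. Aged control replicate 1 is the highest library for the members (2.70), for other mitotic genes (1.92) and for erythroid markers (3.52).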

How the data were processed

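Gene expression was measured in 9 libraries. The authors deposited FPKM per gene, rounded to 2 decimals per the values, with no counts. Without giving roles, the submitters' processing notes list the build GRCm38 (mm10) and the tools STAR, edgeR and FastQC 0.11.5; no source used here names the counter, the annotation or how reads with several matches were treated. FPKM is relative to each library's own total.

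Columns were matched to samples by title and groups came from the titles. Symbols were matched to GENCODE M21 (30192 of 30579 genes). Depth was estimated from the step between low FPKM values times gene length; 98.9% to 100% of those values were whole reads within 0.15. The level of 3 reads on a 2 kb transcript was 0.0543 to 0.0852 FPKM, which covers counting error only. The values are not counts, so no count test was run.

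Values were tested as log2(FPKM + 1) in limma 3.58.1 (R 4.3.3), with a variance trend, on 11988 genes with at least 1 FPKM in at least 3 libraries, in 1 fit of 3 group means with 6 residual degrees of freedom. Benjamini-Hochberg adjustment ran over those genes, with a threshold of 0.05. This scale understates changes of low genes. A member or list gene is called without overlap where all libraries of a group lie on 1 side of the other's. Per-library values are given for 10 members chosen by role, for the 3 with the smallest p in each comparison and for others that carry a role. Genes of other cell cycle lists are named where they passed, and marker lists by their sums. Members and lists were chosen with earlier results of these data known. The fit was tested on simulated data, with independent genes and for each gene the same SD in every library. That test does not cover the unequal spreads of the groups or the labelled-knockout library that stood apart. The settings tried in its place were array weights, a fit of the compared groups alone, each library left out, the replicate number as a block, median-ratio rescaling, removal of immunoglobulin genes, no filter and a pseudocount of 0.1; leaving out aged control replicate 1 with labelled-knockout replicate 2 and holding the 37 tested members fixed where these were left out were added after seeing the data. Python 3.11.15, numpy 2.4.6, pandas 2.3.3 and matplotlib 3.10.9 were used.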

Additional observations from a re-analysis of the deposited data

How the results depend on the processing

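The count of members called was 0 in each comparison and stayed 0 with a pseudocount of 0.1, without a filter, after median-ratio rescaling and with immunoglobulin genes left out. With array weights, whose estimate stopped before it converged, 26 members passed for aged over young controls, 16 for labelled-knockout over aged and 1 (Foxm1) for labelled-knockout over young libraries, while 61.9%, 52.9% and 11.8% of all tested genes passed. A fit of only the aged and young controls called 2 members, Ccnd2 (adjusted p = 0.0474) and Cdk4 (adjusted p = 0.0327), with 18.7% of all genes. Leaving out libraries gave 0 to 3 called members for aged over young controls, 0 to 1 for labelled-knockout over aged libraries (Cdk4, 0.79, adjusted p = 0.0255, without labelled-knockout replicate 2) and 0 for labelled-knockout over young libraries. Filters were recomputed, so some fits tested fewer than 37 members.

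The labels do not say whether replicate numbers pair the samples. In their deviations from group means, same-numbered libraries correlated at −0.29 to 0.30 and differently numbered ones at −0.41 to 0.37. Deviations within a group of 3 depend on each other, so these correlations cannot settle it. With the replicate block 0 members were called in all 3 comparisons, and the calls of Cdkn1a, Myc, Cdkn1c, Smc4 and Tuba1b were lost (adjusted p = 0.0879, 0.126, 0.122, 0.116 and 0.140). Over all 17 other settings, those that left libraries out included, Cdkn1a kept its call in 10 and Cdkn1c in 6. Myc and Smc4 kept theirs in 5 each and Tuba1b in 2.

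Some fold changes of members that did not pass changed sign, and the cause was not tested. In labelled-knockout libraries against young controls, Rrm2 went to 0.0864, 0.00506 and 0.53 and Cdk4 to 0.12, 0.0271 and 0.0528 under median-ratio rescaling, without immunoglobulin genes and with array weights, and Cdk1 to 0.58 with array weights. Over the fits that left libraries out, the fold changes in that comparison ranged from −0.22 to 0.43 for Mcm6, −0.56 to 0.31 for Rrm2, −0.63 to 0.0793 for Cdk1, −0.0675 to 0.98 for Ccnd1, −0.23 to 0.0790 for Cdk4 and −0.15 to 0.36 for Ccnb1. For labelled-knockout over aged libraries they ranged from −0.74 to 0.39 for Cdk1, −0.82 to 0.28 for Ccnb1 and −0.33 to 0.0637 for Pcna, and in aged against young controls from −0.31 to 0.49 for Cdk1. Rescaling moved the median of all genes in aged against young controls by over 0.1, to −0.00194, and the member median there to 0.50 (33 of 37 positive). Low levels limit these results: Bub1 and Mki67 stayed under 1 FPKM in the deposited values, and with immunoglobulin genes left out Mki67 reached 1.01 FPKM in aged control replicate 1 alone.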

Other observations

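Cks2, a small protein that binds cyclin-dependent kinases, was far above the other mitotic genes in a pair of libraries. It was at 20.79, 5 and 41.67 FPKM in labelled-knockout libraries, at 396.85, 517.01 and 37.46 FPKM in aged controls and at 16.45, 18.64 and 34.47 FPKM in young controls. Gata2, a transcription factor of blood progenitors and mast cells, was high in the same pair, at 0.74, 1.47 and 2.83 FPKM in labelled-knockout libraries, at 151.31, 207.2 and 12.6 FPKM in aged controls and at 0.88, 0.9 and 0.97 FPKM in young controls. Aged control replicate 2 held the highest Cks2 of all libraries. Its Mki67, at 0.58 FPKM, was exceeded only in aged control replicate 1. Its Plk1, at 0.82 FPKM, was near the median over the libraries (0.84 FPKM). Cks2 and Gata2 were picked after their values were seen, and no test is given.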
